A study of Mus musculus with 6 samples.

Results

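The 9 myosin light chain genes Mylpf, Myl1, Myl4, Myl6, Myl6b, Myl2, Myl3, Myl7 and Myl9 were examined for Sox6 and RNA polymerase II (Pol II) in mouse fetal myotubes. They were taken by name and placed with the GENCODE annotation of NCBI Build 37 (mm9), in which they are 9 of 22359 protein-coding genes and have 15 of 31298 separate transcription starts. A Sox6 site was counted when it lay in such a gene or within 20 kb of it, which gave 16 of the 3550 sites in the deposited lists.

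Chromatin came from primary myoblasts of C57BL/6 wild type limb muscle of fetuses at E18.5 (day of gestation), used at passage 17 and kept for 48 h in medium with 2% horse serum so that they fused into myotubes. It was sequenced in 6 libraries of 3 groups, with 2 libraries each after immunoprecipitation (IP) with a Sox6 antibody, after IP with a Pol II antibody, and without IP (input DNA). The Pol II antibody binds the repeat at the tail of the enzyme's largest subunit. There was no second condition, so each comparison was IP against input, and the data show where the proteins lay and not what follows when Sox6 is lost. The authors describe 2 independent IP experiments each for Sox6 and for Pol II. Nothing in the sources says whether the 2 libraries of a group came from separate embryos, so p-values measure the spread between these libraries only.

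Myosin, the motor of muscle, is a pair of heavy chains whose necks each carry an essential and a regulatory light chain. Which light chain genes are on marks the muscle type. Fast skeletal fibres use Mylpf (regulatory) and Myl1 (essential), slow fibres and the heart's ventricle use Myl2 (regulatory) and Myl3 (essential), the atrium uses Myl7 (regulatory) and Myl4 (essential), and Myl4 is also the essential chain of embryonic skeletal muscle. Smooth muscle and non-muscle cells use Myl9 (regulatory) and Myl6 (essential), while Myl6b, an essential chain whose gene lies next to Myl6, is found in slow muscle and in non-muscle cells. Sox6 is a DNA-binding protein of the Sox family that is known to hold back slow-fibre genes in developing fast muscle.

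Libraries held 2985437 and 1468604 mapped reads for Sox6, 1538757 and 2762155 for Pol II, and 21973495 and 24249850 for input. Both IP comparisons share the 2 inputs. Levels are given as RPM (reads scaled to the same number of mapped reads per library) and, between genes, as RPKM (the same per kb of gene). The myotube label was checked with marker genes, and Pol II over the gene body was higher than input for 10 of 10 myotube markers such as Myog and Acta1 (limma, Benjamini-Hochberg adjusted p under 0.05 over all genes). It was higher for 0 of 8 fibroblast and 0 of 4 endothelial markers, of which 6 and 4 were lower, where 39.5% of all genes were higher and 23.7% lower. Scaled to reads outside genes instead, 2 of 8 and 2 of 4 were higher, none of these was lower, and the counts for myotube, smooth muscle and cardiac markers were 10 of 10, 5 of 5 and 3 of 7, where that scaling called 62.2% of all genes higher. Among 7 cardiac markers Nppa alone was higher, at 2.39 and 2.93 RPKM, and Nppb had no Pol II read. Gata4 and Tbx5 were lower (log2 ratios -0.50 and -1.09). Of 5 smooth muscle markers Acta2, Tagln and Smtn were higher, Myh11 was lower (-0.50) and Cnn1 was not called. Summed Pol II levels in replicates 1 and 2 were 363 and 382 RPKM for myotube, 2.40 and 2.17 for fibroblast, 27.5 and 27.0 for smooth muscle, 4.04 and 4.30 for cardiac, and 0.867 and 0.786 for endothelial markers, and the part of other cells in the light chain values was not tested.

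Input DNA itself was uneven, and this touches Myl4. The 1 Mb of chromosome 11 that holds Myl4 had 3.05 and 3.0 times the median input reads of all 1 Mb bins of the autosomes, and the bins at 102, 103 and 105 Mb were also above 2-fold in both inputs, as were 17 of 2406 bins in all (0.707%). The other light chain genes lay in bins at 1.11 to 1.89 times the median. Ratios to input compare the same place, but the number of Sox6 peaks and the RPKM near Myl4 carry this level with them, and its part in them was not tested.

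Sox6 sites lay near 7 of the 9 genes. A site called in both Sox6 replicates (a common peak) was within 20 kb of 5 genes, Myl2, Myl4, Myl6, Myl6b and Myl7, against 4.34% of all protein-coding genes, and a site called in either replicate was within 20 kb of 7 genes, against 11.4%. Myl6 and Myl6b share their only site, so these 5 genes stand for 4 places. Myl4 had 8 of the 16 sites, Myl7 had 3, Myl1 had 2, Myl2, Myl9 and the Myl6 and Myl6b pair had 1 each, and the fast regulatory chain gene Mylpf and the slow essential chain gene Myl3 had none, also within 50 kb. The sites of Myl1 and Myl9 were called in 1 replicate each.

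Common peaks near these genes are shown first, since their letters and positions can be set against the starts. Those not printed are a peak of 1560 bp inside Myl4 and the one inside Itgb3. Coordinates are of NCBI Build 37, each sequence is the whole deposited interval on the plus strand, and capitals mark matches to the Sox motif (ACAAAG or ACAATG), the E-box (CAGCTG or CAGGTG) and the Tead or MCAT motif (GGAATG), each searched on both strands.
Myl4 peak (chr11:104437982-104438181): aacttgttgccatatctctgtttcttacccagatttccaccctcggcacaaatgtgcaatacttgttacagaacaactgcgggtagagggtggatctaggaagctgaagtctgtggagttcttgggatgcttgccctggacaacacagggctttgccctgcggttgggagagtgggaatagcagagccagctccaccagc
Myl2 peak (chr5:122542922-122543101): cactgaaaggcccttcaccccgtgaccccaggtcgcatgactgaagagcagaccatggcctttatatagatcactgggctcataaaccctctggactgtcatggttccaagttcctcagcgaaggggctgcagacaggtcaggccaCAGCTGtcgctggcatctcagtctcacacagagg
Myl7 peak (chr11:5791382-5791541): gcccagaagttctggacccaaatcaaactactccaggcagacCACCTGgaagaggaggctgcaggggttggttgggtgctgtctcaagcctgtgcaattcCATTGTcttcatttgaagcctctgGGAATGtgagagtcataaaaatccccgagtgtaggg
Myl6b peak (chr10:127933822-127933901): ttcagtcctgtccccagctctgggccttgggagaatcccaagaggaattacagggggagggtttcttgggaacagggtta
The Myl7 interval held all 3 motifs, the Myl2 interval an E-box, and the printed Myl4 and Myl6b intervals none of them. The 1560 bp interval inside Myl4 held 1 Sox and 1 Tead match, both outside the 200 bp around its centre. In the 200 bp around the centre, a Sox motif was found in 2 of the 6 common sites near light chain genes (Myl2 and Myl7) and in 58.4% of all 1066 common peaks, an E-box in 4 of 6 and 66.4%, and the Tead motif in 1 of 6 and 28.4%. In windows 2 kb to either side of the common peaks the shares were 26.2% for Sox, 22.1% for the E-box and 9.8% for Tead. The Runx motif (CCACA), searched as well but not marked in the sequences, was in 4 of the 6 sites, in 68.9% of all common peaks and in 45.7% of the windows to either side.

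By RPM the highest Sox6 level at a site of the group lay inside Myl4, where input was also high. By the ratio to input averaged over replicates, the Myl2 and Myl7 common sites and a Myl7 site in Pold2 ranked above it. With the mean of both inputs, none of these ranked above it in both replicates. The Myl4 peak, chr11:104437982-104438181, is in an intron of the long transcript and ends 118 bp before start 3, the third of the 4 Myl4 starts. The shortest Myl4 transcript with an entry in CCDS, the set of agreed coding sequences, begins 296 bp after start 3. RefSeq has its Myl4 start at start 1. In a 450 bp window around the centre there were 27 and 29 Sox6 reads, or 9.04 and 19.7 RPM, against 19 and 25 input reads, or 0.865 and 1.03 RPM. Sox6 was lower 2 kb away, at 1.51 and 1.70 RPM, so in both replicates the signal was narrow. The log2 ratio to the mean of both inputs was 3.25 in replicate 1 and 4.38 in replicate 2, and ratios of single Sox6 replicates below are to that mean as well. Peaks were called on the same reads, so this is a description without a test. Beside it, the median ratio of all 1061 sites with a common peak was 3.52 (quartiles 3.08 and 4.07), and the mean at Myl4 lay above 64.5% of them. The window also held Pol II, with 11.7 and 13.8 RPM. Flank values here and below are means of the windows 2 kb to either side, and for Pol II they were 25 and 27.7 RPM. The 2 sides were unlike. In the 500 bp bins that begin 24000 and 28000 bp after start 1, Pol II was 0 and 0 RPM upstream of the peak and 44.8 and 65.9 RPM downstream. The primer pair that the study designed for Myl4 amplifies 80 bp, chr11:104438057-104438136, within this peak.

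At Myl2 the common peak had almost no Pol II and the highest ratio of replicate 2 to the mean of both inputs. With input replicate 1 alone that ratio was 4.47, below those of the site in Pold2 (4.75) and the Myl4 peak before start 3 (4.5). The Sox6 window at Myl2 held 9 and 15 reads, or 3.02 and 10.2 RPM, against input of 0.455 and 0.289 RPM and Sox6 flanks of 0.168 and 0.00 RPM. Its log2 ratio was 3.05 in replicate 1 and 4.78 in replicate 2, so the replicates differed in size but both stood above input. Pol II had 0 and 1 reads there, where 3 reads would be 1.95 and 1.09 RPM, and the nearest Pol II peak was 264771 bp away in replicate 1 and 244171 bp in replicate 2. In the GENCODE annotation the peak lies 7949 bp upstream of the first Myl2 start. RefSeq records of a later build place starts of Myl2 further upstream, and their 300-base promoter sequences match Build 37 exactly with starts at chr5:122542733 and chr5:122543198. Counted along the gene, the peak centre lies at 278 bp from the first and at -187 bp from the second, between them. In the 1 kb around these starts Pol II had 1 and 1 reads at the first and 0 and 2 at the second, while Sox6 had 12 and 16 and 12 and 17. These windows overlap and both hold the peak, so many of the reads are counted in both. The Myl2 primer pair of the study, 95 bp at chr5:122542952-122543046, also falls within the peak.

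Myl7, the atrial regulatory chain gene, had 1 common peak, chr11:5791382-5791541, in intergenic sequence 5099 bp past its end. Sox6 reads there were 11 and 9, or 3.69 and 6.13 RPM, against 0.319 and 0.289 RPM of input, and the flanks had 0.168 and 0.681 RPM of Sox6. The log2 ratios were 3.57 and 4.32, and Pol II stood at 1.95 and 1.81 RPM. A peak called in replicate 2 alone lay between it and the gene, 4189 bp past the end of Myl7 at chr11:5792392-5792451, with 2.34 and 4.09 RPM of Sox6. Another of replicate 2, chr11:5776832-5777071, is inside Pold2, a DNA polymerase subunit gene, 714 bp from its start. In replicate 1, which did not call it, this site had 8 reads and a log2 ratio of 4.03, and replicate 2 had 4 reads. Input had only 2 and 6 reads there, or 0.0910 and 0.247 RPM, so the ratio rests on few input reads.

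The site shared by Myl6 and Myl6b, chr10:127933822-127933901, is in an intron of Myl6b, 1880 bp past its start and at -2930 bp from the Myl6 start. It was weaker, with 7 and 6 Sox6 reads, or 2.34 and 4.09 RPM, against 0.501 and 0.619 RPM of input, and log2 ratios of 2.12 and 2.94, with Sox6 flanks of 0.502 and 1.02 RPM. Only 8.95% of all common sites had a lower mean ratio. A Pol II peak covered it in both replicates, with 12.4 and 10.5 RPM.

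Both remaining common sites near Myl4 also ranked low. A wide one of 1560 bp, chr11:104449302-104450861, lies past the end of the shortest Myl4 transcript with an entry in CCDS and is intronic only by a longer model. It had 4.02 and 6.13 RPM of Sox6 and 0.956 and 1.03 RPM of input, with log2 ratios of 2.05 and 2.67, in the midst of Pol II at 60.4 and 60.5 RPM. Its Sox6 flanks had 3.52 and 1.36 RPM, but the downstream flank overlaps another site, chr11:104451512-104452111, called in replicate 1 alone. Only the central 450 bp of the 1560 bp were counted, so these values do not show how far the site stood above its surroundings. The other, chr11:104473042-104473121, is inside Itgb3, an integrin gene, 3711 bp from the Itgb3 start, and had 9 and 6 Sox6 reads with log2 ratios of 1.5 and 1.98 and Sox6 flanks of 0.502 and 1.36 RPM. It lies nearer to Itgb3 than to Myl4.

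At the 10 sites called in 1 replicate, the other replicate gives reads that did not choose the site. There the log2 ratio of Sox6 to input ran from 0.23 to 4.03, and at 6 sites it was above 1 (6 with the same-numbered input and 7 with the other input). No such count over all sites called in 1 replicate stands beside these. Adding 0.5 reads also shifts ratios at low counts upward, so the counts are a description. For Myl1, 2 sites of replicate 1 lay 5953 and 12093 bp upstream of start 1. At the nearer one replicate 2 had 2 reads, or 1.36 RPM against 0.956 and 0.454 RPM of input (log2 ratio 1.32), and at the farther one it had 1 read, or 0.681 RPM against 0.410 and 0.825 RPM (0.76). Reads this few do not separate the 2 Myl1 sites, whose order turned when the other input alone was used. Pol II was 1.95 and 3.26 RPM at the nearer site and 0.325 and 0.724 RPM in its flanks. The Myl9 site, 7925 bp upstream of its start, had a log2 ratio of 3.01 in replicate 2 from 3 reads. Pol II of 6.50 and 9.05 RPM lay there in peaks of both replicates. Its flanks had 6.17 and 5.07 RPM of Pol II and 1.68 and 0.681 RPM of Sox6. Dlgap4, a gene on the same strand, ends 11057 bp before Myl9, so the site is nearer to that end than to Myl9. To which gene this Pol II belongs was not tested. Near Myl4 the sites of 1 replicate had ratios of 0.94, 0.49, 0.23, 2.03 and 1.43 in the other replicate, in order along the chromosome, and the first of them is inside Cdc27, a cell cycle gene.

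**Figure D1:**
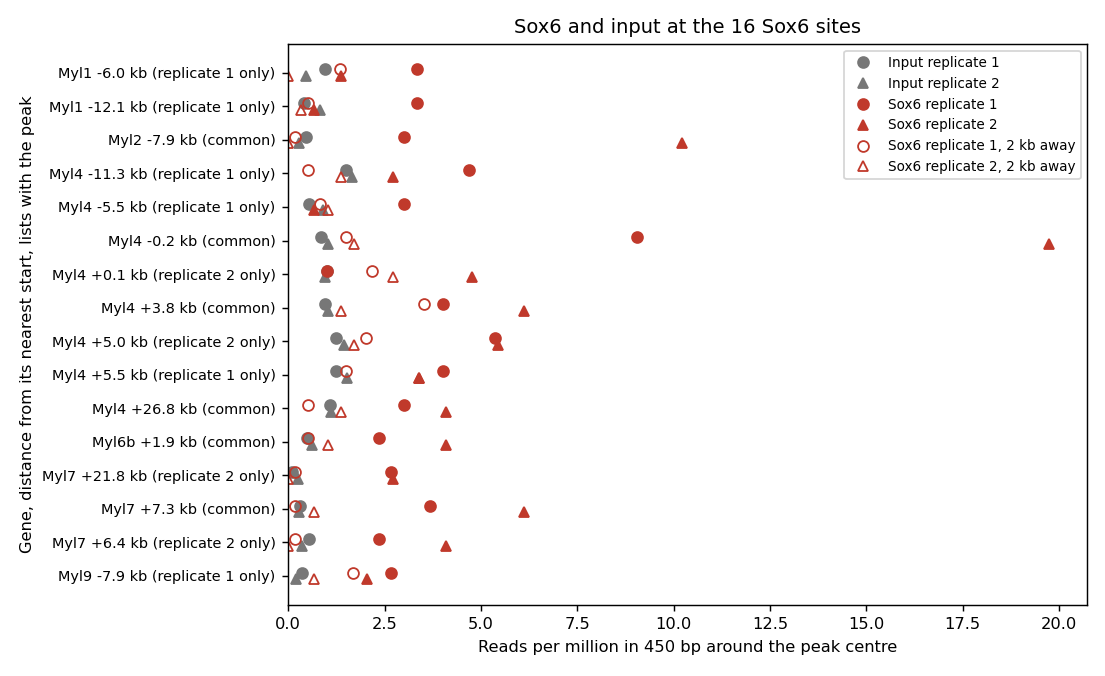
Level in RPM in a 450 bp window (horizontal axis) at the 16 Sox6 sites in or near light chain genes (vertical axis, with distance in kb from the nearest start of the named gene). Filled points are Sox6 (red) and input (grey) by replicate, and open points are the mean of Sox6 in the windows 2 kb to either side. The Myl4 peak just upstream of start 3 reached 9.04 and 19.7 RPM and the Myl2 peak 3.02 and 10.2 RPM, while input did not pass 1.65 RPM at any site.

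Pol II was called over 5 of the genes and not over the other 4. Over the gene body, 5 of 9 genes had more Pol II than input (limma, adjusted p under 0.05), where 39.5% of 20121 genes did, and 0 of 9 had less, where 23.7% did. The median log2 ratio was 3.94 for the light chain genes and 0.20 for all genes.

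The fast chain genes Mylpf and Myl1 were among the most occupied. Pol II over Mylpf was 62.6 RPKM in replicate 1 (95% Poisson interval 55.2 to 70.7) and 73.7 in replicate 2 (67.7 to 80.2), with 1.03 and 0.965 RPKM of input. Its log2 ratio was 6.08 (SE 0.15, limma adjusted p = 1.7e-09), and by mean RPKM it was gene 7 of 22359. Over Myl1 Pol II was 24.5 and 25.1 RPKM with input of 1.06 and 0.917 RPKM, a log2 ratio of 4.65 (SE 0.09, limma adjusted p = 7.7e-10). The cytoskeletal actin gene Actb, used as the level reference, stood at 26.4 and 35.8 RPKM, so Mylpf was above Actb in both replicates, and Myl1 was below it in replicate 2 while their intervals overlapped in replicate 1. Intervals here and elsewhere cover counting error only, since reads copied in PCR are not separate molecules.

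The embryonic and atrial chain gene Myl4 had 30.1 and 31.5 RPKM of Pol II over its full model of 45.09 kb, against input of 1.89 and 2.13 RPKM, which gave a log2 ratio of 3.94 (SE 0.08, limma adjusted p = 7.7e-10). The full model averages over a long 5′ stretch with little Pol II. Over the shortest CCDS transcript, 9.94 kb, Pol II was 86.0 and 87.1 RPKM, which placed Myl4 at rank 4 by that measure, above Mylpf at rank 8. The order of Myl4 and Mylpf therefore depends on the gene model.

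Myl6 and Myl6b also carried Pol II, at 24.4 and 24.5 RPKM and at 19.7 and 19.3 RPKM, with log2 ratios of 4.76 (SE 0.17, limma adjusted p = 1.7e-08) and 4.16 (SE 0.17, limma adjusted p = 3.1e-08). Myl1 and Myl6 had overlapping intervals in both replicates and cannot be ordered. The intervals of Myl6b, 16.5 to 23.2 and 16.9 to 21.9 RPKM, overlapped those of Myl6 in both replicates (20.1 to 29.3 and 21.2 to 28.1), so these neighbours cannot be ordered either, and lay below that of Myl1 in replicate 2 alone. The 5 genes also had high input for their length, at 0.900 to 2.01 RPKM on average against a median of 0.461 over all genes, with Myl4 at rank 17, and the part of this in the Pol II levels was not tested.

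Myl2, Myl3, Myl7 and Myl9 had little Pol II. Myl9 had 0.521 and 0.696 RPKM from 5 and 12 reads, a log2 ratio of 0.56 (SE 0.38, limma adjusted p = 0.22). Myl7 had 0.303 and 0.337 RPKM from 1 and 2 reads, a log2 ratio of 0.26 (SE 0.63). Myl3 had 0.106 and 0.176 RPKM from 1 and 3 reads (log2 ratio -0.95, SE 0.51), and Myl2 had 0.363 and 0.0578 RPKM from 7 and 2 reads (log2 ratio -1.27, SE 0.66, limma adjusted p = 0.12). None of the 4 passed the main test with all libraries. With the replicate number as a block, also with all libraries, Myl2 was called lower (-1.27, limma adjusted p = 0.017). Some other settings gave a call: Myl9 was higher when scaled to reads outside genes, at 1.80, Myl2 was lower with voom, at -1.46, and without Pol II replicate 1, at -2.48 (but -0.05 without Pol II replicate 2), Myl3 was lower, at -1.13, without Pol II replicate 2, and Myl9 was higher, at 0.73, without Pol II replicate 1. Their intervals overlapped one another in each replicate except those of Myl2 (0.00700 to 0.209) and Myl9 (0.360 to 1.22) in replicate 2. The gap to the lowest of the other 5 genes, Myl6b, was far larger than any of these intervals. The long Myl2 model overlaps Ccdc63 on the other strand, and over the shorter Myl2 transcript Pol II had 3 and 2 reads.

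**Figure D2:**
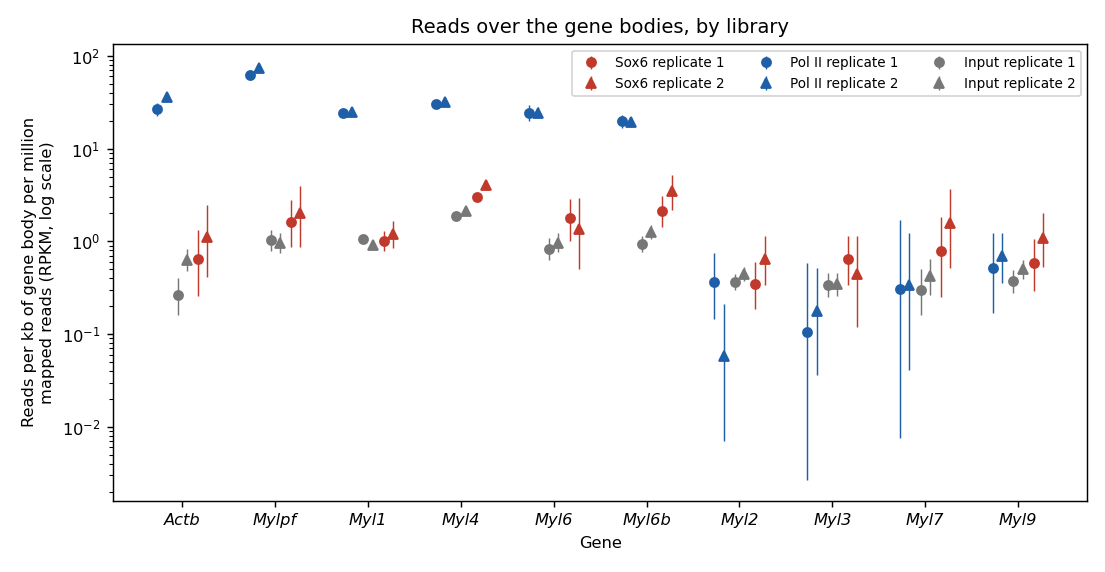
Level in RPKM (vertical axis, log scale) over the light chain genes and Actb, with a point for each library and 95% Poisson intervals as bars. Pol II (blue) of Mylpf, Myl1, Myl4, Myl6 and Myl6b lies between 19.3 and 73.7 RPKM in both replicates, and that of Myl2, Myl3, Myl7 and Myl9 between 0.0578 and 0.696 RPKM, with Myl2 in replicate 2 the lowest and below its input (grey, 0.367 and 0.441 RPKM).

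At the starts, in windows of 500 bp to each side, 9 of 14 starts fitted had more Pol II than input (limma, adjusted p under 0.05) and 0 had less, where 40.2% of 24810 starts had more and 0.0887% less. The median log2 ratio was 3.26 for these starts and 1.04 for all starts. Start 1 of Myl2 could not be fitted, with 2 and 3 input reads. These p-values rest on a spread that limma took wholly from the trend over all starts, and an exact permutation test of 2 libraries against 2 cannot go below 0.333.

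Mylpf start 2 had 87 and 193 Pol II reads, or 56.5 and 69.9 RPM, with 0.728 and 0.784 RPM of input, and the largest log2 ratio of the group, 6.34 (SE 0.30). Its start 1, 1.07 kb upstream, had 41.6 and 62.6 RPM and a log2 ratio of 5.10 (SE 0.30). The windows of the 2 starts lie close together in a gene of 2.69 kb, and their difference of 1.24 (SE 0.58) did not pass the test (limma adjusted p = 0.30). Myl6 had 30.5 and 34.8 RPM at its start, with a log2 ratio of 5.72 (SE 0.32). Myl6b had 3.90 and 3.98 RPM, with a log2 ratio of 2.58 (SE 0.45, limma adjusted p = 9.1e-08). Myl7, Myl9, Myl2 start 2 and Myl3 had 0 to 3 Pol II reads in each replicate and log2 ratios of -0.09, 0.30, -0.89 and 1.73. That of Myl3 (SE 0.81) missed the threshold (limma adjusted p = 0.077) with 2 reads in each replicate, which adding 0.5 reads shifts upward. It was called with no filter and when scaled to reads outside genes, and without Pol II replicate 2, at 2.15, and the Myl9 start without Pol II replicate 1, at 1.29.

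The 200 bases before 4 starts are given on the strand of the gene, with capitals for the E-box, the Tead or MCAT motif, the MEF2 site and the CArG box, the last of which binds serum response factor. The first 3 starts carried Pol II and the last did not pass the test.
Myl4 start 3 (chr11:104438099-104438298): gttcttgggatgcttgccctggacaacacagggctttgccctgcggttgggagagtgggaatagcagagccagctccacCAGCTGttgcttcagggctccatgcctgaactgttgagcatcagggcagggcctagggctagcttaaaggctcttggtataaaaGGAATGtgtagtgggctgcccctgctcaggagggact
Mylpf start 1 (chr7:134354922-134355121): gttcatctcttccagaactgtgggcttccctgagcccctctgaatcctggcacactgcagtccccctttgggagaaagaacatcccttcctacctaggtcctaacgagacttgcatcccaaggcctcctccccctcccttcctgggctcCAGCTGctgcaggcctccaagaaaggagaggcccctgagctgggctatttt
Myl1 start 2 (chr1:66981929-66982128): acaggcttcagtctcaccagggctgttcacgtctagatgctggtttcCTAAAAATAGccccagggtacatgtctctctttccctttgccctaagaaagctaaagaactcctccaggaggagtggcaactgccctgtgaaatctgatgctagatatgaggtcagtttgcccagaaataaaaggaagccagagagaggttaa
Myl3 start 1 (chr9:110665950-110666149): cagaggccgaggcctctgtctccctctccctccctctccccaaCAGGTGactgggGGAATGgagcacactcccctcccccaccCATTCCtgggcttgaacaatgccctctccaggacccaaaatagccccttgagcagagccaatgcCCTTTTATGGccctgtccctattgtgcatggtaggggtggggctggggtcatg
The first 83 bases of the Myl4 sequence are the end of the Sox6 peak printed above, and the E-box, at -121 bp from the start, has 4 of its bases within that interval and runs past it. From 250 bases before to 50 after, an E-box was found at 6 of the 15 light chain starts and at 33.4% of all 31298 starts, the Sox motif at 4 and 27.8%, and the Tead motif at 3 and 13.9%. A CArG box was found at 3 starts, those of Myl3, Myl7 and Myl9, and at 1.52% of all starts, and a MEF2 site at 1 start, Myl1 start 2, and at 1.87%. None of the 3 starts with a CArG box passed the Pol II test. A match of letters is no evidence of binding.

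**Figure D3:**
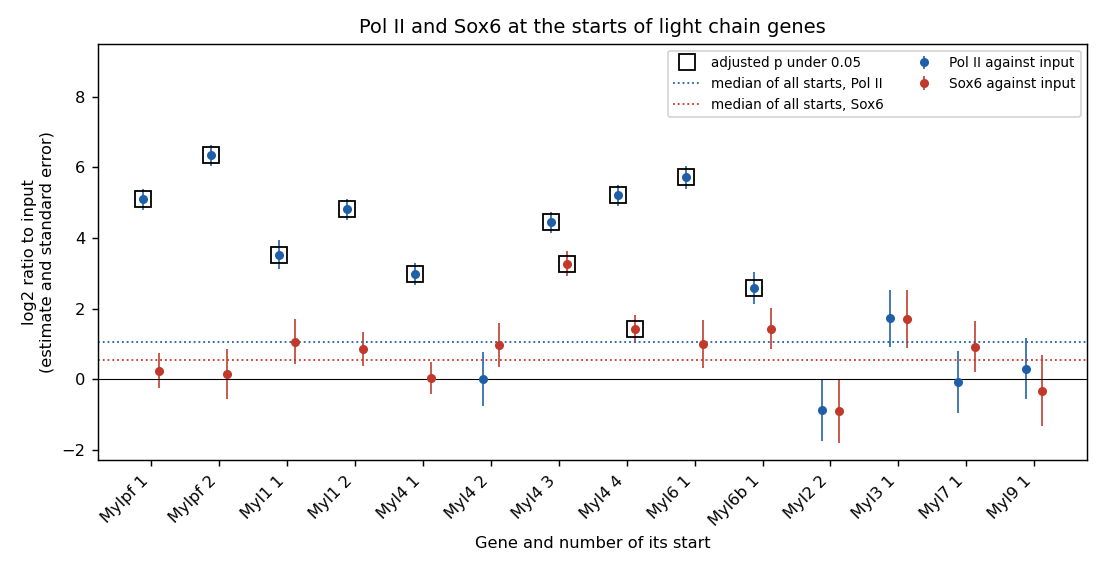
log2 ratio to input (vertical axis, estimate with standard error) of Pol II (blue) and Sox6 (red) at the 14 fitted starts of light chain genes (horizontal axis), with dotted lines at the medians of all starts, 1.04 and 0.55. Black squares mark an adjusted p under 0.05, which 9 starts had for Pol II and 2, Myl4 starts 3 and 4, for Sox6, where the windows hold called Sox6 peaks and the values are a description.

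Along Myl4, Pol II reads differed in number among its 4 starts, without a call. Start 1, at chr11:104411977, had 16.2 and 13.4 RPM of Pol II (log2 ratio 2.99, SE 0.31), but the start of Cdc27 on the other strand is 180 bp away, and Pol II of the 2 genes cannot be told apart in this window. Start 2 had 0 and 4 reads, a log2 ratio of 0.00 (SE 0.77), and was called with windows of 1000 bp to each side, at 0.90. Start 3, at chr11:104438299, had 39.0 and 39.1 RPM (log2 ratio 4.44, SE 0.30), and start 4, at chr11:104446278, had 73.4 and 55.0 RPM (5.21, SE 0.29). Since start 4 lies in the gene body downstream of start 3, Pol II from the 2 starts cannot be told apart in its window. Pol II was 3.80 and 4.54 RPKM from start 1 to start 2, 8.44 and 12 from start 2 to start 3, and 90.2 and 90.8 from start 3 to start 4. From start 4 to the end of the shortest CCDS transcript it was 62.9 and 64.3 RPKM. It did not end there, with 108 and 105 RPKM in the first 2 kb past that end and 71.5 and 87.3 in the next 2 kb. A Pol II peak lay 150 bp from the intronic Sox6 peak in replicate 1 and overlapped it in replicate 2, so the step in Pol II and the Sox6 peak were close together. Differences between starts were not called. That of start 3 against start 2 was 4.44 (SE 0.93, limma adjusted p = 0.14) and that of start 3 against start 1 was 1.45 (SE 0.58, limma adjusted p = 0.25). Among 10139 pairs of starts of one gene, 0 passed for Pol II in limma and 2089 had an unadjusted p under 0.05, and the smallest adjusted p of a Myl4 pair was 0.14.

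Sox6 at Myl4 start 3 was 11.7 and 25.2 RPM against input of 1.68 and 1.90 RPM, a log2 ratio of 3.27 (SE 0.35), and at start 4 it was 2.34 and 8.17 RPM, a log2 ratio of 1.42 (SE 0.41). These were the 2 light chain starts of 14 called for Sox6 (limma, adjusted p under 0.05), where 2.02% of all starts were. The number was 8 of 14 without Sox6 replicate 1, where 34.8% of all starts were called, and 1 of 14 without input replicate 1 or 2, where 0.165% and 0.282% were. The window of start 3 holds the common peak and that of start 4 a peak of replicate 2, so neither call is independent of the peak lists. The call at start 4 was lost without Sox6 replicate 2 (0.54), without input replicate 1 (1.24) and without input replicate 2 (1.60). It was also lost with windows of 250 bp (1.81, limma adjusted p = 0.070) and 1000 bp (1.47, limma adjusted p = 0.057), with a pseudocount equal in RPM (1.34) and with voom (1.1). The other 12 starts had Sox6 log2 ratios from -0.91 to 1.71, with 0 to 6 Sox6 reads a library.

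**Figure D4:**
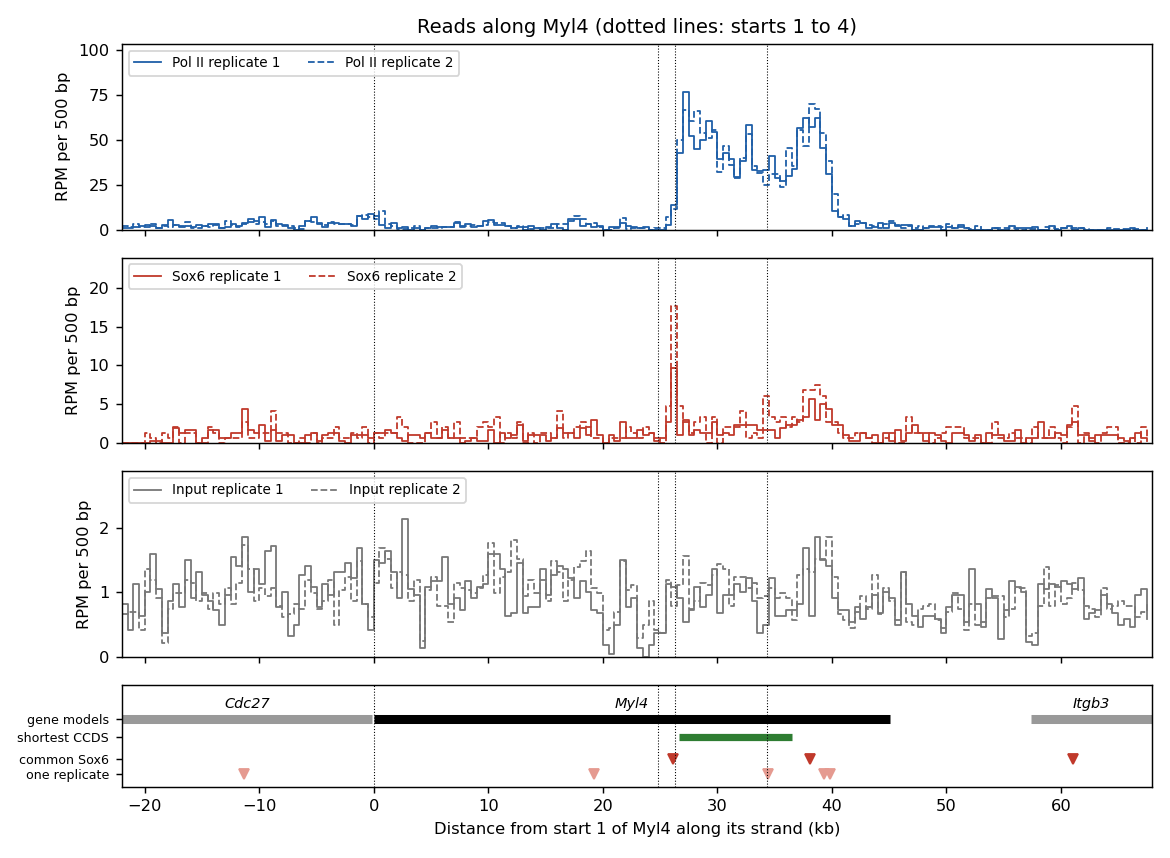
Level in RPM in bins of 500 bp (vertical axes) for Pol II, Sox6 and input along Myl4, by distance in kb from start 1 (horizontal axis), with gene models, the shortest CCDS transcript and Sox6 sites below and starts as dotted lines. Both replicates of Pol II are low from start 1 to start 2 and high from start 3 to beyond the CCDS transcript, and Sox6 has its highest bin at start 3 in both replicates, while input has no such bin.

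Over gene bodies, 2 of 9 light chain genes had more Sox6 than input (limma, adjusted p under 0.05), where 5.53% of genes did, and 0 had less, where 1.65% did. Both contain a common peak called on the same reads, so this is a description. Myl4 had 3.01 and 4.08 RPKM of Sox6 (log2 ratio 0.80, SE 0.14, adjusted p = 0.020) and Myl6b had 2.15 and 3.46 RPKM (1.34, SE 0.30, adjusted p = 0.034). The call of Myl6b was lost without input replicate 1, at 1.14. The other 7 log2 ratios ran from 0.17 for Myl1 to 1.75 for Myl7, the latter from 5 reads in each Sox6 library. Sox6 over the gene body was also called higher for 5 of the 10 myotube markers, and the part of Pol II in these low ratios was not tested. With a pseudocount equal in RPM the ratios were 0.80 and 1.31, and neither was called, as was none of the 20121 genes. Without Sox6 replicate 1 the number of light chain genes called was 7, against 35% of all genes, and without Sox6 replicate 2 it was 5, against 20.4%, where the remaining Sox6 library is assumed to vary like the inputs.

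Myl1 has 2 starts 10.03 kb apart, known from other work to give the long fast chain from the distal start and the short fast chain from the internal one. At start 1, chr1:66991958, Pol II was 5.2 and 10.9 RPM (8 and 30 reads, log2 ratio 3.53, SE 0.40), and at start 2, chr1:66981928, it was 37.7 and 35.5 RPM (58 and 98 reads, 4.81, SE 0.30). The internal start was the higher in both replicates, and the difference of 1.28 (SE 0.74) did not pass the test (limma adjusted p = 0.39). RefSeq places the distal start 328 bp further downstream, and around that position Pol II was 9.10 and 13.0 RPM. Between the starts Pol II was 15.1 and 16.2 RPKM, and from start 2 to the end of the gene it was 33.0 and 33.1 RPKM. The 2 kb past the end had 23.4 and 24.6 RPKM and the next 2 kb 9.42 and 11. Sox6 at the 2 starts was 1.01 and 1.36 RPM and 1.34 and 3.41 RPM, with log2 ratios of 1.06 (SE 0.64) and 0.86 (SE 0.48) that were not called. Each was called without Sox6 replicate 1, at 1.33 and 1.52.

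**Figure D5:**
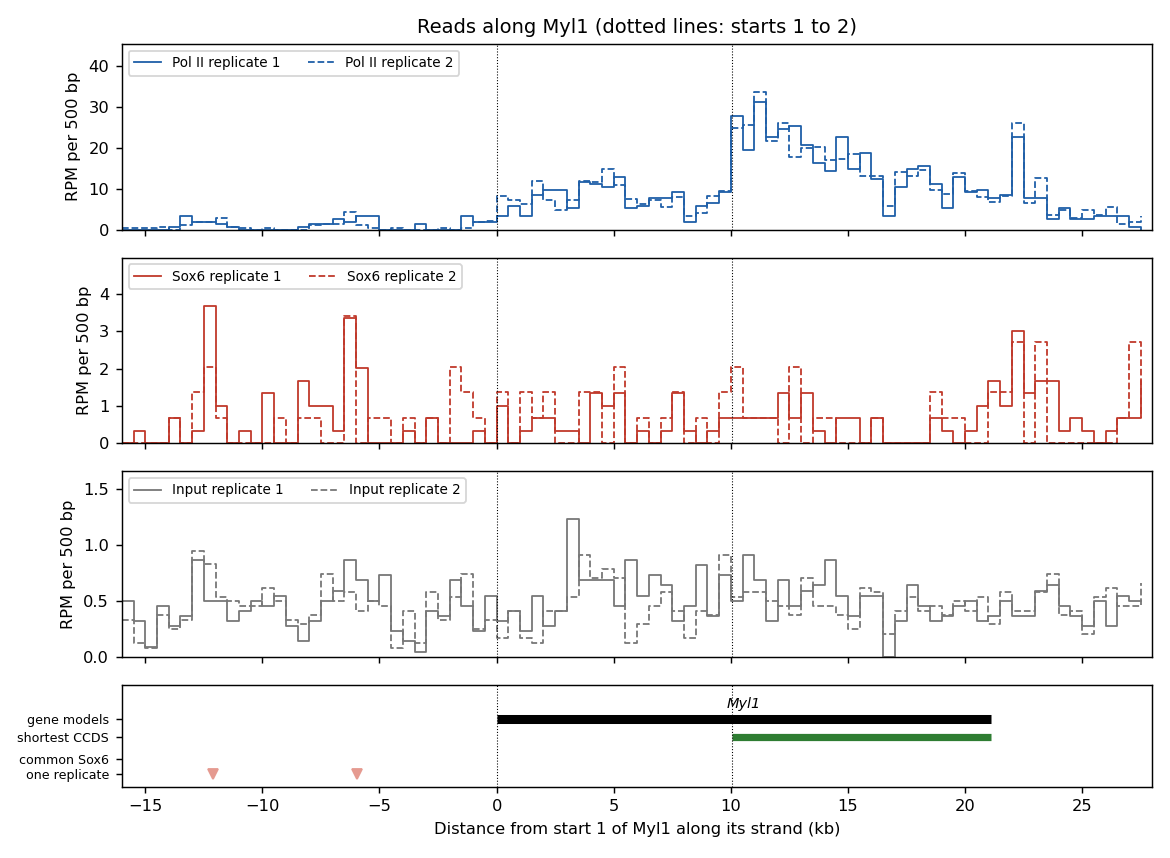
Level in RPM in bins of 500 bp (vertical axes) for Pol II, Sox6 and input along Myl1, by distance in kb from start 1 along the gene's strand (horizontal axis), with the gene model and Sox6 sites below. Pol II of both replicates steps up at start 1 and again at start 2, with 15.1 and 16.2 RPKM between the starts and 33.0 and 33.1 RPKM after the second, and the 2 Sox6 sites of replicate 1 lie upstream of both.

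Myl6b and Myl6 follow each other on the same strand with 282 bp between them. Along Myl6b Pol II was 5.02 and 7.99 RPKM in the first of 5 equal parts of the gene and between 18.4 and 26 RPKM in each of the other 4. It then stood at 31.0 and 40.7 RPKM in the first of 3 equal parts of Myl6 and at 15.5 and 17.6 RPKM in the last. A single Pol II peak of 10.46 kb in replicate 2 covered all of Myl6 and 93.2% of Myl6b, so the end of one gene and the start of the next are not separated. Sox6 along Myl6b was 2.59 and 3.76 RPKM in the first of the 5 parts, 3.33 and 5.26 in the second and 2.59 and 5.26 in the third, which holds the common site. It was 1.11 and 0.752 RPKM in the fourth part and 1.11 and 2.26 in the last.

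Mylpf is covered by 1 Pol II peak in each replicate, over 91.5% and 100% of its length. Past its end Pol II was 51.7 and 54.7 RPKM in the first 2 kb, a stretch that runs into Sept1, a septin gene on the other strand whose end is 164 bp away, and 10.4 and 12.7 RPKM in the next 2 kb. Pol II peaks overlapped 5 of the 9 genes in each replicate, where 12.5% of all genes in replicate 1 and 17.5% in replicate 2 had one, and left Myl2, Myl3, Myl7 and Myl9 without one.

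Of 29 partner genes of the light chains, Myl12a has no entry of that name in the annotation. Pol II over the body was higher than input for 17 of the other 28 and lower for 6 (limma, adjusted p under 0.05, against 39.5% and 23.7% of all genes), and their median log2 ratio was 0.80. Scaled to reads outside genes, 21 were higher and 1, Myh15, was lower, against 62.2% and 2.6% of all genes. That scaling raises the log2 ratio of every gene alike (the median of all genes went from 0.20 to 1.43), so whether a gene is called lower depends on the scale.

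Among 4 kinases of the regulatory light chain, Mylk4 (2.46 and 2.52 RPKM, log2 ratio 1.78) and the smooth muscle kinase gene Mylk (0.890 and 0.839 RPKM, 0.68) were higher. The skeletal muscle kinase gene Mylk2 was not called, at 0.444 and 0.556 RPKM (0.18), and the cardiac kinase gene Mylk3 was lower, at 0.115 and 0.198 RPKM (-1.40, and -0.17 when scaled to reads outside genes). Mylk3 was the only kinase gene of the 4 with a common Sox6 site within 20 kb, and its Sox6 log2 ratio over the body, which holds that site, was 0.80 (SE 0.13), a description. Of 7 genes of the myosin phosphatase and its inhibitors, 6 were higher, against 39.5% of all genes. The inhibitor gene Ppp1r14b led at 10.6 and 11.3 RPKM (log2 ratio 4.30), with the catalytic subunit gene Ppp1cb at 1.06, the targeting subunit genes Ppp1r12a, Ppp1r12b and Ppp1r12c at 1.58, 0.59 and 0.93, and Ppp1r14c at 1.21. The inhibitor gene of smooth muscle, Ppp1r14a, had 0.00 and 0.0889 RPKM and was not called. A common Sox6 site lay within 20 kb of Ppp1r12c alone.

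The non-muscle chain gene Myl12b (5.01 and 4.81 RPKM, log2 ratio 3.12) and Mylip, a ubiquitin ligase gene named for its binding to the regulatory light chain (3.85 and 3.71 RPKM, 2.49), were higher, and Myl10 was not called (-0.19). Myl12b was also called for Sox6 over its body, at 0.85 (0.83 with a pseudocount equal in RPM, where no gene was called).

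Of 14 heavy chain genes, 7 had more Pol II than input and 5 had less, against 39.5% and 23.7% of all genes. The embryonic heavy chain gene Myh3 (73.3 and 77.8 RPKM, log2 ratio 6.61) and the perinatal Myh8 (17.4 and 19.0 RPKM, 5.01) led, followed by the non-muscle Myh9 (2.25), Myh7b (2.16), the fast Myh1 (1.34), the slow and ventricular Myh7 (1.30) and the non-muscle Myh10 (0.28). Lower were Myh2, Myh11, Myh13, Myh14 and Myh15, with log2 ratios from -0.50 to -1.85 on the scale of all mapped reads. Scaled to reads outside genes, which raises all genes alike, these ran from 0.74 to -0.61. With that scaling Myh11 was called higher (0.74) and only Myh15 of these was still called lower. The atrial Myh6, at 0.624 and 0.594 RPKM, and the fast Myh4 were not called on the scale of all mapped reads. Both were called higher when scaled to reads outside genes, at 1.41 and 0.81, where 62.2% of all genes were. A common Sox6 site lay within 20 kb of Myh1, Myh2, Myh3, Myh6, Myh7 and Myh7b, 6 of 14 against 4.34% of all genes, where neighbours in a cluster can share one. Sox6 over the body was called for Myh3, Myh6, Myh8 and Myh9, against 5.53% of all genes, with log2 ratios of 1.75, 1.17, 0.86 and 0.66. With a pseudocount equal in RPM these were 1.75, 1.16, 0.85 and 0.65, and no gene of the 20121 was called. A common site lies within Myh6 and a site of 1 replicate within each of Myh3 and Myh9, called on the same reads.

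Levels in the 6 libraries were also compared among 20121 genes by Euclidean distance of log2(RPKM + 0.1) over the gene body. Values were not centred by gene, so near genes are those of like level. Nearest to Mylpf were the skeletal actin gene Acta1 (distance 0.83), Myh3 (0.89) and the cardiac actin gene Actc1 (0.89). Nearest to Myl1 were Gm14492 (0.62), Mat2a (0.67) and 1500012F01Rik (0.69), and nearest to Myl4 were 4930442H23Rik (1.23), Myl6b (1.59) and Rpl32 (1.72).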

How the data were processed

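The authors aligned single-end reads with Bowtie 0.12.5 to NCBI Build 37, used SISSRs to call peaks (fragments taken as 450 bp long, with the matching input as control), and took Sox6 peaks of both replicates within 50 bp as common. The deposited files hold positions of mapped reads and of peaks, with no count or normalized value. The score column that the authors deposited with the Pol II peaks was not used. Whether repeated reads were removed is not stated, and 2.96% to 7.88% of reads repeat a position. Here reads were counted by their 5′ end, and peaks of the 3 Sox6 lists that lay within 50 bp were joined into sites. Genes and starts are the protein-coding models of GENCODE, with starts within 500 bp merged into the most upstream. RefSeq promoter sequences (GRCm38.p6) were placed by exact match alone. limma 3.58.1 (R 4.3.3) with a trend was fitted to log2 RPM with 0.5 reads added over all starts or genes with at least 10 input reads. Counting used Python 3.11.15 with numpy 2.4.6 and pysam 0.24.0. The fit was also run on simulated Poisson counts with the same fixed spread in every library, a setting that does not stand for the spread of these data. Because 0.5 reads weigh more in the smaller IP libraries, ratios at low counts are shifted upward, so medians over all features stand beside them. All 9 genes, all of their starts and sites, their partner genes and Actb were named by rule, and the members, lists and markers were chosen with earlier results of these data known. Alternatives were other windows and gene models, repeated positions counted once, another pseudocount, voom, no filter, another scaling, the replicate number as a block, other distances, and leaving out each library. The shortest CCDS transcript, the differences between starts, the ratio of each Sox6 replicate at the sites to the mean of both inputs, the markers under another scaling, and leaving out libraries at the Sox6 sites were added after seeing the data.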

Additional observations from a re-analysis of the deposited data

How the results depend on the processing

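With few Sox6 reads, 1 or 2 reads decide most values at single starts and sites, and the number of features called moved with the settings. Features called higher for Pol II at starts numbered 9962, and 5573 with windows of 250 bp (fewer starts pass the filter), 15116 when scaled to reads outside genes, and 0 with limma's voom (also 0 at an unadjusted p under 0.05, with an estimated prior variance of 280000, which voids that test). Over bodies Pol II was called at 7940 genes and at 12506 when scaled to reads outside genes. That scaling moved the median log2 ratio of all features from 1.04 to 2.27 and from 0.20 to 1.43 for Pol II, and from 0.55 to 0.70 and from 0.20 to 0.36 for Sox6. Lower calls for Pol II over bodies went from 4770 to 523 with it, and at starts from 22 to 4707 with a pseudocount equal in RPM. For Sox6 at starts 502 became 107 and 182 with windows of 250 and 1000 bp, 76 with voom, 2438 with no filter and 795 when scaled to reads outside genes, and 2748 lower calls appeared with a pseudocount equal in RPM, against 353 higher. For Sox6 over bodies 1113 became 0 in limma with a pseudocount equal in RPM (5050 in either direction at an unadjusted p under 0.05, and 1211 higher calls by voom), 2347 with no filter and 2360 when scaled to reads outside genes. Causes other than those stated were not tested.

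Leaving out 1 library gave 7260 to 12293 and 6826 to 8845 calls for Pol II at starts and bodies, and 41 to 8644 (41 without input replicate 1, 8644 without Sox6 replicate 1) and 162 to 7043 (the same libraries) for Sox6. At the 6 common sites the median ratio of Sox6 to input was 3.17 (log2) and ran from 2.58, without Sox6 replicate 2, to 3.63, without Sox6 replicate 1. Common sites within 10 and 50 kb were near 5 light chain genes as well, against 3.32% and 7.0% of all genes.

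Deviations of same-numbered libraries had correlations from -0.068 to 0.044 over starts and bodies. With few IP reads in most windows, counting error is large, so these values cannot decide whether such libraries are paired. The labels give replicate numbers only, while the authors called peaks against the input of each experiment. The main fit did not take the numbers as pairs. With the replicate number as a block, 9582 and 8008 features were called for Pol II and 551 and 2840 for Sox6, Myl2 was called lower for Pol II over its body (-1.27, limma adjusted p = 0.017) and Myl7 higher for Sox6 (1.75, limma adjusted p = 0.040). No call of a light chain gene or start was lost under it.

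The 5 Pol II calls over light chain bodies held under every alternative run, and the 9 at starts under all but voom. Sox6 at Myl4 start 3 held under all. Values that changed sign were those of starts or genes not called. For Pol II these were Myl4 start 2 (0.68 and 0.90 with windows of 250 and 1000 bp, 1.24 scaled to reads outside genes, -1.16 to 1.16 without 1 library), Myl2 start 2 (0.35 scaled to reads outside genes), Myl7 start 1 (0.05 with 250 bp, 1.14 scaled so, -0.83 to 0.65 without 1 library), Myl9 start 1 (-0.48 with 1000 bp, -1.35 with a pseudocount equal in RPM, -0.68 to 1.29 without 1 library), the Myl3 body (0.29 scaled so) and the Myl7 body (-0.14 with a pseudocount equal in RPM). For Sox6 they were Mylpf start 1 (-0.03 with repeated positions counted once, -0.84 to 1.33 without 1 library), Mylpf start 2 (-1.48 with a pseudocount equal in RPM, -0.07 with voom, -1.19 to 1.49 without 1 library), Myl4 start 1 (-0.17 with a pseudocount equal in RPM, -0.15 to 0.21 without 1 library), Myl9 start 1 (0.68 and 0.15 with windows of 250 and 1000 bp) and the Myl2 body (-0.16 to 0.75 without 1 library).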
